A study of Mus musculus with 6 samples.

Results

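Gene deserts are long stretches of the genome without protein-coding genes, and the open chromatin found in them is far from any promoter. The regions described here are the ATAC-seq peaks that the authors' deposited table annotates as distal intergenic, with a transcription start site (TSS) more than 100 kb away. Of 65535 listed peaks, 60705 lay outside the distal part of chromosome 14 (from position 75130556 in mm10), which was left out. Of these, 7766 met the rule, or 12.8% of listed peaks and 36.1% of the distal intergenic ones. Their median distance to a TSS was 259081 bases and the largest was 2303239. The rule used location alone and no accessibility value. Another 2430 peaks met the distance rule inside distal chromosome 14, where 1660 were gained and 0 lost, and were not used.

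ATAC-seq marks accessible DNA through cutting by the Tn5 transposase. It was run on 6 libraries of mouse embryonic stem cells of the E14 Tg(Nkx2-5-EmGFP) background, which carry a green fluorescent reporter for the cardiac factor Nkx2-5. Control cells, labelled WT, gave 3 libraries and Lmna KO cells gave 3, and both were grown on mitomycin-treated embryonic fibroblast feeders with leukemia inhibitory factor. Per the labels' protocols, feeders were removed by preplating. Nothing in the labels tells separate cultures or clones apart within a group. The spread that underlies a deposited p-value may therefore be technical. The table gives 1 mean per group, as a log2 concentration of reads, so values per library, their spread and the depth are unknown, and a log2 fold is knockout minus control.

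Lmna encodes lamins A and C, filaments that line the inner face of the nuclear envelope. Long gene-poor, AT-rich stretches of the genome tend to lie against this lamina in lamina-associated domains, where chromatin is mostly closed. Scattered open sites within gene deserts can be enhancers or sites bound by architectural proteins, and some deserts beside developmental genes hold enhancers that act over long distances. The comparison asks how accessibility at such sites differs once lamin A/C is lost.

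At the targeted gene, the deposited table lists chr3:88492472-88493370 (mm10), at an Lmna start site, at a log2 concentration of 6.27 in control and 2.0 in knockout cells (FDR 4.44e-20). The cell type was checked by the strongest listed promoter peak of each marker gene. Of 10 stem cell markers 9 were listed, at 4.63 to 6.96 on the log2 scale in control (median 6.48) and 5.6 to 7.75 in knockout (median 7.05), and 5 were gained. The log2 folds of these 5 were 0.72 to 0.98, beside a median of 0.45 over all listed peaks outside distal chromosome 14. Of all listed promoter peaks 12.1% were gained, and 18.5% of those at a log2 concentration of 6 or more. Whether the markers differ from other promoters was not tested. Of 13 embryonic fibroblast markers, which the feeder layer could supply, 8 were listed at 2.18 to 5.98 in control (median 5.44) and 2.71 to 6.27 in knockout (median 5.02), and none was called. The part of feeder chromatin in the results was not tested.

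The label of gene desert was checked against the RefSeq annotation of GRCm38.p6, to which mm10 corresponds. The interval between the protein-coding genes flanking each peak had a median of 1163 kb (quartiles 619 and 2116, 7695 peaks), and 614 peaks had no protein-coding gene within 1 Mb on either side. However, 685 of the 7766 peaks (8.82%) overlapped a RefSeq gene of some kind. Long non-coding RNA genes held 481 of them and protein-coding genes 58. A further group of 97 lay in antigen receptor loci, mostly the immunoglobulin kappa (53 peaks) and heavy chain (35 peaks) loci, which consist of many small gene segments. Most peaks thus lay outside any RefSeq gene, and the distance in the table is that to the TSS the authors' annotation holds.

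A genome sequence was not used here, but RefSeq promoter windows (250 bases before to 50 after a start, GRCm38.p6) overlap 55 of the peaks, and 28 windows lie wholly inside 27 of them. Of these 27 peaks 1 was gained and 2 were lost, and the windows of those 3 are shown because they are the only called members whose sequence could be read. All belong to long non-coding RNA genes that carry only a predicted name. Capitals mark matches on either strand to the motif letters of OCT4 (ATGCAAAT), SOX2 (ACAAAG), KLF (CCACCC), ESRRB (AAGGTCA), AP-1 (TGANTCA) and TEAD (GGAATG), and to AGATAA, the letters bound by factors of the GATA family.
Gm41207, chr14:72869748-72870047, minus strand, lost: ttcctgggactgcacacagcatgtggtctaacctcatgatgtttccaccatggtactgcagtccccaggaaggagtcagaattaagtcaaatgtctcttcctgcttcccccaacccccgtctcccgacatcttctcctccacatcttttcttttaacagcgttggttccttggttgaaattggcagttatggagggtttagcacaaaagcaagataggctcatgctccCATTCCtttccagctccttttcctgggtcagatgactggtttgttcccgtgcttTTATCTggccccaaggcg
Gm32587, chr14:18463360-18463659, plus strand, lost: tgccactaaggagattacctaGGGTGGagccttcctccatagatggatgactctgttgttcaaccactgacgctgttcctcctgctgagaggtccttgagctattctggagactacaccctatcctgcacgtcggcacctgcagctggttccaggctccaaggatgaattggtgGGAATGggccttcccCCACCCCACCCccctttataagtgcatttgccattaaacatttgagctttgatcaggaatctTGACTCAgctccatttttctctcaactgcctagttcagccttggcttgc
Gm52738, chr4:54071794-54072093, plus strand, gained: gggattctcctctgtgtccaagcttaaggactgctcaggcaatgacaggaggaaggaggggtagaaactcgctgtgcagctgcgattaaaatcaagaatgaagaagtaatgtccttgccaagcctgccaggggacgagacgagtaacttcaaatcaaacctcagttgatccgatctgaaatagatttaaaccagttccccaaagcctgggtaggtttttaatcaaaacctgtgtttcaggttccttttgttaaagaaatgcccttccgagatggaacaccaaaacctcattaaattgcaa

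The Gm41207 window holds a TEAD and a GATA match, and that of Gm32587 holds 3 KLF matches, a pair of which overlap, 1 TEAD match and 1 AP-1 match. No match was found in the gained Gm52738 window. Of all 32851 promoter windows, 31.5% hold the KLF letters, 14.7% those of TEAD, 11.2% those of GATA and 7.81% those of AP-1, so none of these matches is rare. SOX2 letters occur in 18.7%, ESRRB letters in 4.72% and OCT4 letters in 1.74%. Among the 28 windows inside gene desert peaks, TEAD letters were found in 9, KLF and GATA letters in 6 each, SOX2 in 5, ESRRB in 3, AP-1 in 2 and OCT4 in 0. The G+C content was 49.7%, 51.3% and 44.3% in the 3 windows printed, against a median of 48.5% in the 28 windows and 52.7% in all. They held 5, 3 and 6 CpG dinucleotides, against medians of 5 and 7. In the deposited table the peak around the Gm41207 start, 159 kb from Fndc3a, stood at 4.98 in control and 3.58 in knockout cells (log2 fold -1.39, FDR 0.00985). Around the Gm32587 start, 131 kb from Ube2e1, the deposited levels were 5.35 and 4.34 (-1.01, FDR 0.0164), and around the Gm52738 start, 231 kb from Tmem38b, they were 6.03 and 6.69 (0.66, FDR 0.0236).

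Gains outnumbered losses in gene deserts. At a deposited FDR of 0.05 or less, 666 of the 7766 peaks were gained in the knockout cells and 270 were lost. That is 12.1% called, 8.58% gained and 3.48% lost. Over all listed peaks outside distal chromosome 14, 14.2% were called, 11.8% gained and 2.43% lost, so both the called and the gained share were lower in gene deserts and the lost share was higher. Over all 99078 peaks tested, which include unlisted peaks and distal chromosome 14, 12.2% were called, and that share is not on the same basis. The gained share of called peaks was 71.2% (exact 95% interval 68.1 to 74.0, counting error only, with peaks taken as units), against 82.9% over all listed peaks, 80.2% for intergenic peaks within 100 kb of a TSS and 90.3% for promoter peaks. Gene deserts held 9.29% of all gained and 18.3% of all lost peaks. The table lists only peaks with p up to 0.422, so its medians leave out small changes. The median log2 fold was 0.31 in gene deserts and 0.45 over all listed peaks, and 51.8% against 66.7% of folds were positive. No test of these differences between classes was run. The balance depends on the zero of the folds: centred on the median of listed peaks (0.45) and retested, 147 gene desert peaks were gained and 888 lost, and over all listed peaks 1389 and 5054.

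**Figure D1:**
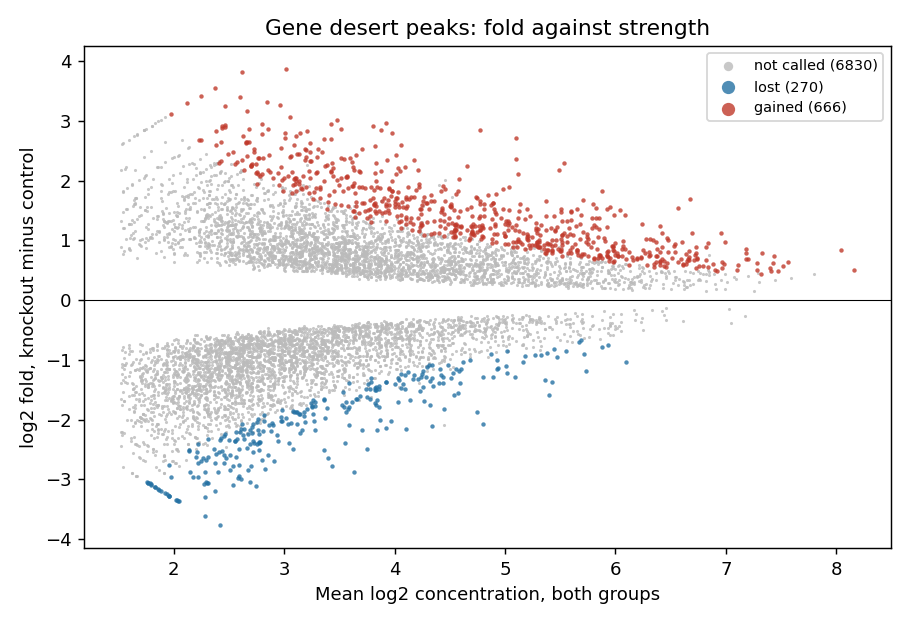
Each point is 1 of the 7766 gene desert peaks, with the mean log2 concentration of both groups on the x axis and the deposited log2 fold, knockout minus control, on the y axis. Called losses (270) thin out towards strong peaks while called gains (666) run to the strongest, and the empty band around 0 is the part of the tested peaks that the table does not list.

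Gained and lost peaks had the same median level in control cells. Gained peaks had a median log2 concentration of 3.86 in control (quartiles 2.48 and 5.03) and 5.22 in knockout cells (4.35 and 6.12). Lost peaks had a median of 3.86 in control (3.32 and 4.65) and 1.88 in knockout cells (0.82 and 3.2). Gains had a median log2 fold of 1.37, with quartiles of 0.96 and 1.89. For losses the median was -2.02, with quartiles of -2.54 and -1.44. These medians describe peaks chosen by their fold, and they support no test. Of the lost peaks 143 (53.0%) ended below a log2 concentration of 2 in knockout cells, and of the gained peaks 126 (18.9%) started below 2 in control. Among lost peaks 22 were at the lowest knockout value of the whole table (-0.45), and among gained peaks 5 were at its lowest control value (-0.3), so their folds depend on that floor. Gained peaks were wider, with a median of 857.5 bases against 501.5 for lost and 510.5 for peaks not called.

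Peak strength went with the direction of calls inside gene deserts as it did elsewhere. Strength here is the mean of both groups, so a gain raises it and a loss lowers it. The counts by strength therefore do not show how strong a peak was in control cells. Gene desert peaks were weak, with a median log2 concentration of 3.28 against 4.02 for all listed, 3.83 for nearer intergenic and 5.38 for promoter peaks. Below 3, where 39.3% of them lay, 63 were gained and 119 lost. From 3 to 4 the counts were 150 and 74, from 4 to 5 they were 165 and 55, and from 5 to 6 they were 176 and 21. At 6 or more, 112 of 257 peaks were gained and 1 was lost, chr13:118137564-118138746, 249 kb from Mrps30, a gene of the mitochondrial ribosome. This peak stood at 6.53 in control and 5.5 in knockout cells in the authors' deposited table (log2 fold -1.03, FDR 0.000403, named after its value was seen). The median of listed log2 folds, gains and losses together, did not grow with the gained counts. In the bins from 3 upward, gene desert medians were 0.51, 0.47, 0.48 and 0.49, and below 3 it was -0.91. Few listed folds lie near 0, so these medians do not measure the size of gains or losses. Positive folds rose from 55.6% at 3 to 4 to 91.1% at 6 or more. Why more of the stronger peaks were called was not tested.

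Set beside nearer intergenic peaks of the same strength, gene desert peaks were gained as often or slightly more often in the 2 strongest bins and less often in the other 3. At 6 or more, 43.6% of both were gained, against 18.5% of promoter peaks. From 5 to 6, 26.2% of gene desert and 24.8% of nearer intergenic peaks were gained, and 3.13% and 1.59% were lost. From 4 to 5, 12.0% and 13.1% were gained and 3.99% and 2.76% lost. From 3 to 4, where 31.0% of gene desert peaks lay, 6.24% and 7.83% were gained and 3.08% and 3.02% lost. Below 3, 2.06% and 2.93% were gained and 3.9% and 4.66% lost. With the other classes weighted to the 5 strength bins of gene desert peaks, 73.6% of called nearer intergenic peaks and 72.8% of called promoter peaks were gained, close to the 71.2% of gene deserts. The weighted rates per 100 listed peaks were 9.5 gained and 3.4 lost for nearer intergenic and 6.96 and 2.61 for promoter peaks, beside 8.58 and 3.48. The gaps to the unweighted shares of those classes, 80.2% and 90.3%, were wider. No test of these gaps was run.

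**Figure D2:**
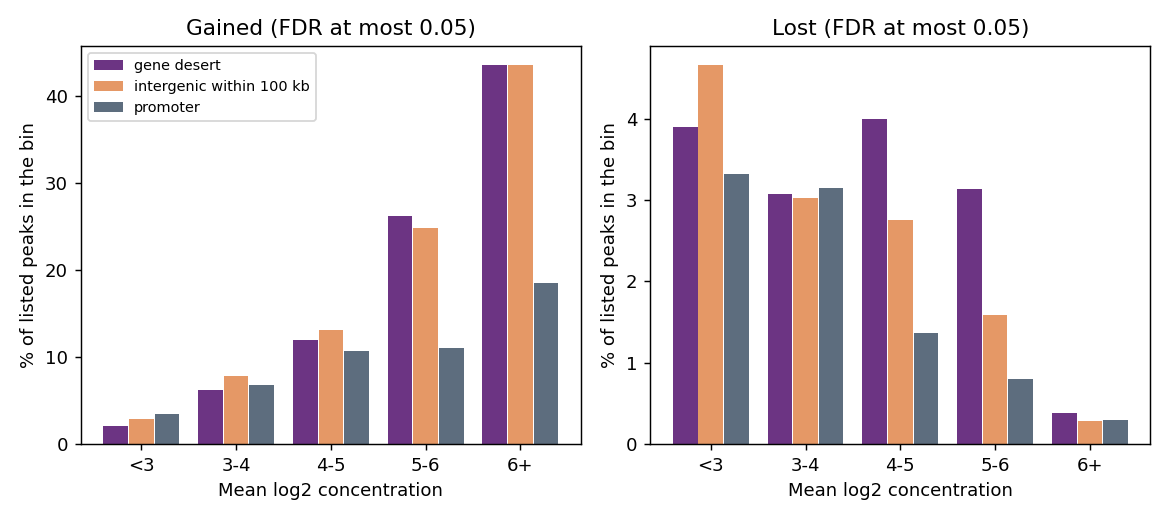
Bars give the share of listed peaks gained (left) and lost (right) at a deposited FDR of 0.05 or less, in 5 bins of mean log2 concentration, for gene desert, nearer intergenic and promoter peaks. Gained shares rise with strength to 43.6% of gene desert peaks, and lost shares from 4 to 6 are higher in gene deserts (3.99% and 3.13%) than in the other classes. The concentration is the mean of both groups, so it includes the knockout level.

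Farther into the deserts fewer peaks were gained. Of 2882 peaks at 100 to 200 kb from a TSS, 285 were gained and 102 lost (9.89% and 3.54%). At 200 to 500 kb, 8.22% of 3079 were gained and 3.38% lost, and at 500 to 1000 kb, 7.13% of 1388 were gained and 3.89% lost. Beyond 1000 kb, 29 of 417 were gained and 10 lost (6.95% and 2.4%). The median log2 concentration fell over the same bins, from 3.44 through 3.23 and 3.15 to 3.06, and its part in the fewer gains was not tested. In the same order, median log2 folds were 0.37, 0.31, -0.37 and -0.33, and 53.9%, 52.0%, 48.1% and 48.4% of folds were positive. Few listed folds lie near 0, so the medians change sign with these small shifts in share. Upstream and downstream peaks had like counts, with 319 gained and 128 lost of 3884 upstream and 347 and 142 of 3882 downstream.

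By gene density, the gained share was highest where genes were most frequent, but it did not fall at each step. Among peaks with 6 or more RefSeq protein-coding genes within 1 Mb, 9.89% were gained and 3.47% lost (3519 peaks), and with 3 to 5 genes 8.42% and 2.98%. With 1 or 2 genes the shares were 6.56% and 3.9% (1922 peaks), and with none 7.82% and 3.58% (614 peaks). The median log2 concentration fell in the same order, from 3.45 through 3.22 and 3.14 to 3.12, and its part was not tested. The median interval between flanking protein-coding genes was 970 kb for gained and 1206 kb for lost peaks, beside 1181 kb for peaks not called. Antigen receptor loci held 9 gained and 4 lost of 97 peaks (9.28% and 4.12%), close to the 8.58% and 3.48% of all gene desert peaks. Of these, 7 gained and 1 lost of 53 were in the kappa locus and 0 and 2 of 35 in the heavy chain locus. These called peaks are too few to tell the loci apart. Outside every RefSeq gene, 601 peaks were gained and 235 lost of 7081 (71.9% gained), so the balance there was that of all gene desert peaks. Inside long non-coding RNA genes it was 45 and 26 of 481 (63.4% gained).

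**Figure D3:**
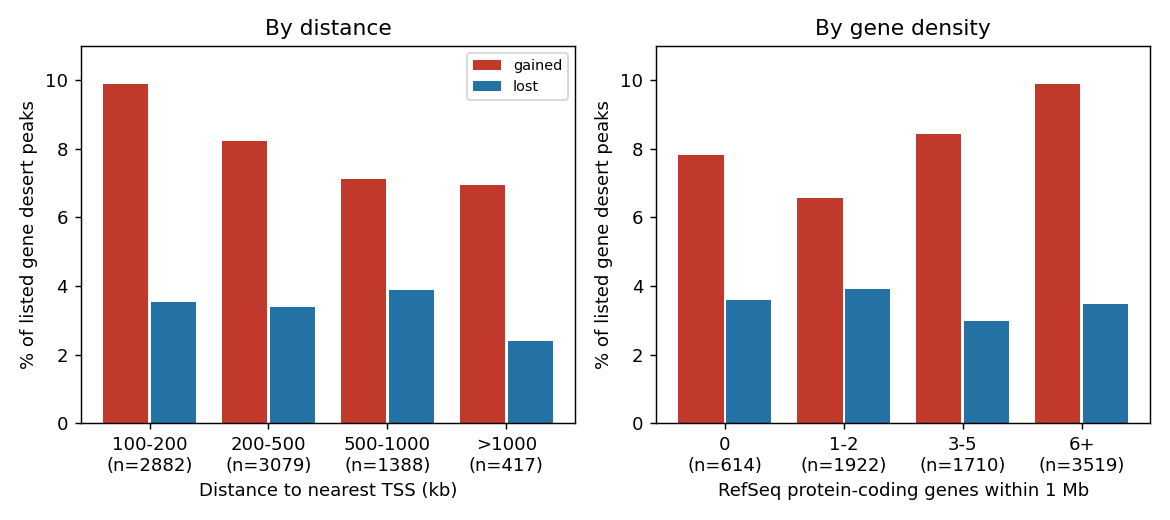
Bars give the share of listed gene desert peaks that were gained or lost at a deposited FDR of 0.05 or less, by distance to the nearest TSS (left) and by the number of RefSeq protein-coding genes within 1 Mb (right), with the number of listed peaks under each bin. Gained shares fall from 9.89% at 100 to 200 kb to 6.95% beyond 1000 kb, while lost shares stay between 2.4% and 3.89%.

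Gains outnumbered losses on each of the 20 chromosomes with at least 50 gene desert peaks. The gained share of called gene desert peaks ran from 59.5% on chromosome 11 and 60.6% on chromosome 1 to 84.6% on chromosome 9. On 19 of the 20 it was below that of the other listed peaks of the same chromosome, the exception being chromosome 9 (84.6% against 83.1%). Strength was not matched in the comparisons by chromosome. Over all chromosomes the median log2 concentration was 3.28 for gene desert peaks and 4.15 for the other listed peaks. Chromosome 16 had the lowest called share, with 12 gained and 7 lost of 341 peaks (5.57%), beside 17.0% of its other listed peaks. Chromosome 17 followed with 8.12% of 320, beside 15.8%. On the X chromosome 20 peaks were gained and 8 lost of 268, with 70.5% positive folds and a median log2 fold of 0.64, beside 0.52 for the other listed X peaks. Strong peaks, with a log2 concentration of 5 or more, had median log2 folds between 0.34 (chromosome 16, 30 peaks) and 0.59 (chromosome 6, 63 peaks), and 0.48 over all 928.

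**Figure D4:**
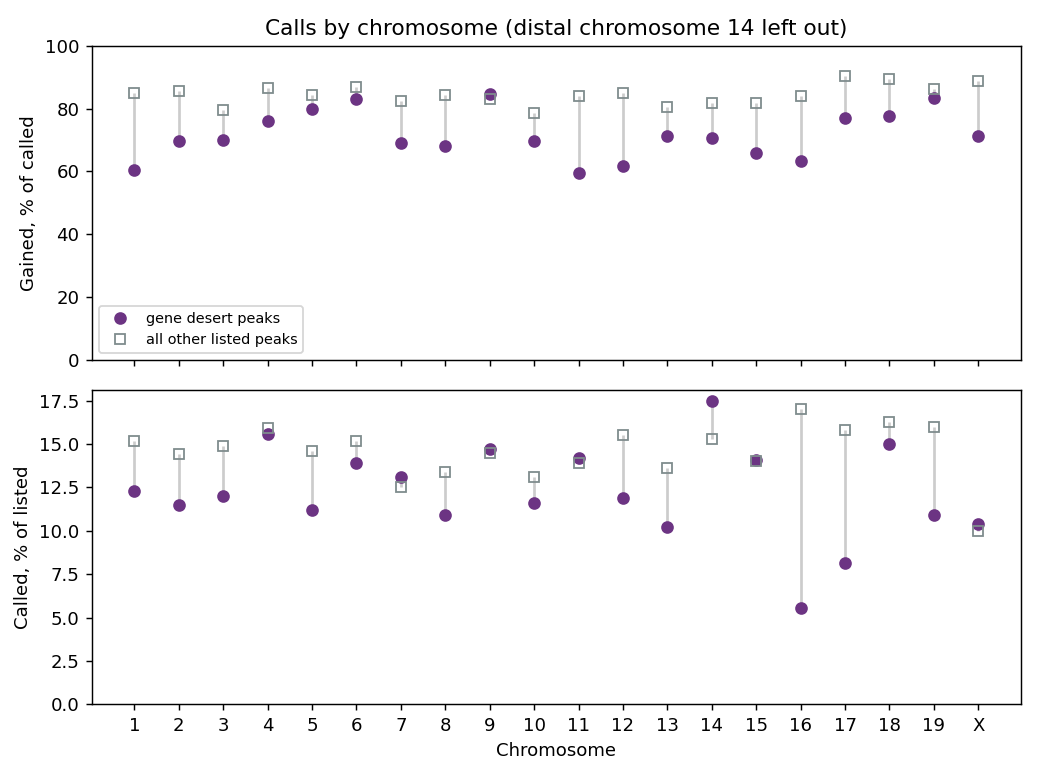
For each chromosome with at least 50 gene desert peaks, filled circles give gene desert peaks and open squares all other listed peaks, as the gained share of called peaks (top) and the called share of listed peaks (bottom). Circles lie below squares in the top panel on every chromosome but 9, and chromosome 16 shows the widest gap in called share, 5.57% against 17.0%. Peak strength was not matched between circles and squares.

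Called peaks were spread thinly over many deserts. Taking as a stretch each run of gene desert peaks with no other listed peak between them, there were 1495 stretches, of which 361 held 1 peak and the largest 66. At least 1 called peak lay in 598 of them and more than 1 in 218. Of the 218, 108 held gains alone, 26 losses alone and 84 both. Of the 208 stretches with at least 10 listed peaks, 39 held no called peak. Called peaks less than 50 kb apart formed 94 neighbouring pairs, of which 64 were both gained, 10 both lost and 20 opposite. That is 78.7% in the same direction. As 71.2% of all called gene desert peaks were gained, some pairs would match without any link between neighbours. The share of matching pairs to be found without a link was not worked out, so the 71.2% does not account for the 78.7%. A link between neighbours was not tested.

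The most called peaks in a stretch were 6, in a pair of long deserts with as many gains as losses. The first, chr5:77594393-80684373 between 1700017L05Rik and Adgrl3, which encodes a latrophilin adhesion receptor, spans 3090 kb with 37 listed peaks, 3 gained and 3 lost. It also holds 4 of the 5 called peaks farthest from a TSS, at 1705 to 1748 kb. The authors' deposited log2 folds there were 1.01 and 1.93 for the gained and -2.87 and -2.55 for the lost ones, so opposite calls lay close together. The fifth of those peaks lay 1722 kb from Pcdh19, a protocadherin gene, on the X chromosome (deposited log2 fold 1.94, FDR 0.0483). None of the 3 gained peaks among these 5 kept its call after centring and retesting, and both lost ones did. Centring moves each peak towards loss, so this difference was largely built in. The second desert, chr9:11126709-12995147 beside Cntn5, a neuronal adhesion gene, holds 36 listed peaks with 3 gained and 3 lost.

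Stretches with 5 called peaks numbered 6, and they differed in direction. Beside Brinp1 and Cdk5rap2, chr4:69163835-69949847, 5 of 15 peaks were gained and none lost. In the stretch chr9:3900590-4193261, between Aasdhppt and Gucy1a2, which encodes a subunit of soluble guanylate cyclase, 5 of 13 were gained and none lost. Beside Map3k7, the kinase TAK1, chr4:31527691-31827505 had 4 gained and 1 lost of 7. Beside Flrt2, a neuronal and cardiac adhesion gene, chr12:94128984-95543048 had 2 gained and 3 lost of 30 and a median log2 fold of -1.11. Beside Vrk2 and Ccdc85a, chr11:26931778-28298807 had 3 gained and 2 lost of 20. The largest stretch of all, chr1:140809875-143478258 beside 4930590L20Rik and Cdc73, had 3 gained and 2 lost of 66. By contrast 0 of 38 were called in chr16:81664551-83538494 between Ncam2 and 4930553E22Rik, and 1 of 37 in chr8:97182096-98845906 beside Got2.

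By nearest gene, the 7766 peaks fell to 1770 genes, of which 492 had a gained and 225 a lost peak, and 72 had both. The nearest gene is an assignment by distance, and it does not show which gene a site acts on. Adcyap1, a neuropeptide gene, had the most, with 47 peaks between 115 and 1046 kb away, 2 gained and 1 lost. Cox7c had 41 (3 gained, 1 lost), Brinp3 40 (1 and 2), Ncam2 39 (2 and 0), 4930590L20Rik 38 (2 and 2) and Got2 36 (2 and 0). Between 5.13% and 10.5% of their peaks were called, beside 12.1% of all gene desert peaks, and each share rests on 2 to 4 called peaks.

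The largest gains took sites from low in control to moderately open in knockout cells. They were taken among called peaks at or above the median strength of gene desert peaks, 3.28, where 561 were gained and 127 lost. The peak chr12:32682718-32683790, 136 kb from Nampt, an enzyme of NAD synthesis, stood at 1.31 in control and 4.31 in knockout cells in the authors' deposited table (log2 fold 3.01, FDR 0.000496). Beside Pkia, which encodes an inhibitor of protein kinase A, chr3:7198856-7200077 went from 1.79 to 4.74 (deposited log2 fold 2.96, FDR 2.01e-05). Near Sall3, a zinc finger factor of development, chr18:81176384-81177135 went from 2.74 to 5.58 (deposited log2 fold 2.84, FDR 2.59e-09). The peak near Pde3a, a phosphodiesterase of heart and vessel muscle, chr6:141136975-141137966, went from 3.19 to 5.9 (deposited log2 fold 2.71, FDR 1.01e-10). These knockout levels lie above the median of listed peaks, 4.02, and the control levels below it. Other gains among the largest were near Mms22l (deposited log2 fold 2.95), a factor of replication fork repair, the homeobox genes Barx2 (2.91) and Shox2 (2.87), the cation channel gene Trpc4 (2.79) and Tyrp1 (2.7), an enzyme of melanin synthesis. The 9 gains described or drawn here kept their call after centring and retesting, but they had been picked for large folds.

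The largest losses ran the other way between like levels. The peak chr4:8418073-8418744, 117 kb from Rab2a, a GTPase of transport between endoplasmic reticulum and Golgi, stood at 4.45 in control and 1.57 in knockout cells in the authors' deposited table (log2 fold -2.88, FDR 0.00021). Near Adgrl2, another latrophilin gene, chr3:149547214-149547509 went from 4.12 to 1.62 (deposited log2 fold -2.51, FDR 0.00214). Near Sall1, the relative of Sall3 that is needed for kidney development, chr8:89269385-89269908 went from 4.41 to 2.24 (deposited log2 fold -2.18, FDR 0.00515), and a weaker peak at 410 kb went from 3.41 to 0.47 (-2.94, FDR 0.0114). The predicted and non-coding genes Gm7977 (deposited log2 fold -2.78), Gm31747 (-2.65), 4930405D11Rik (-2.5) and Gm28979 (-2.15), with Eno1b (-2.39), Phf3 (-2.18) and the Rac regulator Arhgap24 (-2.18), had the others. By FDR, the losses with the smallest values were at stronger sites, named after their values were seen. They were chr3:16940921-16941534, 758 kb from Ythdf3 (5.5 to 3.41, deposited FDR 2.37e-06), and chr3:137093383-137094186, 190 kb from Ppp3ca, a calcineurin subunit (5.41 to 3.52, deposited FDR 1.02e-05).

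**Figure D5:**
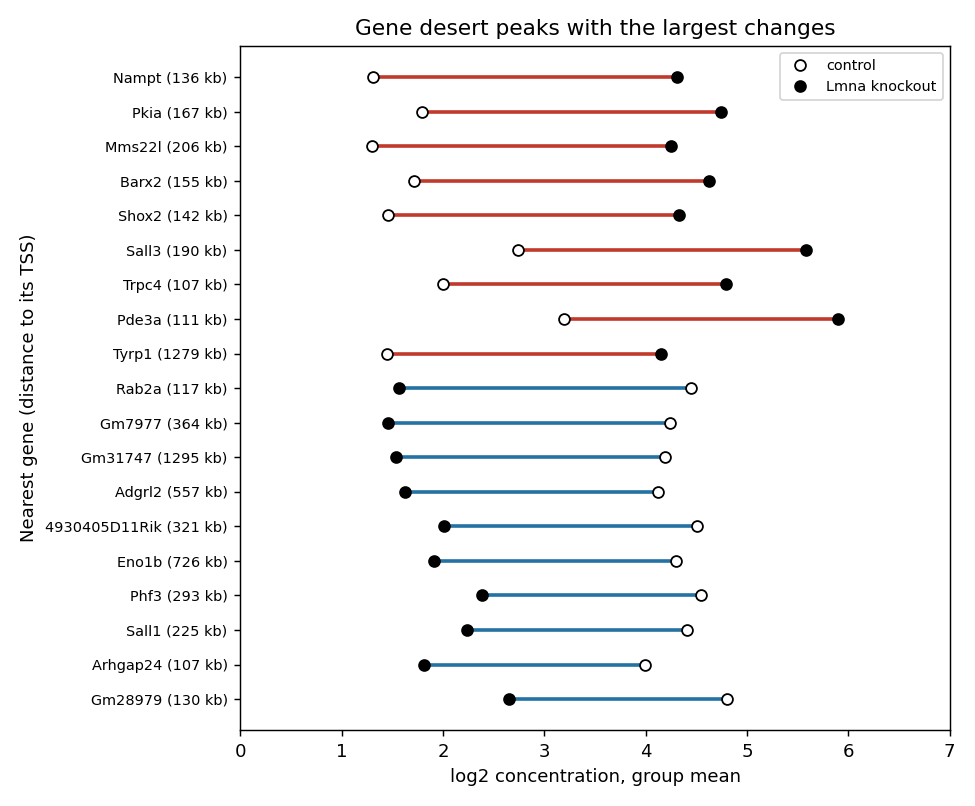
Deposited group means on the log2 scale in control (open circles) and Lmna knockout (filled circles) are drawn for 9 of the 10 largest gains and the 10 largest losses among called gene desert peaks of at least median strength, with the nearest gene and its distance. Control levels lie at 1.3 to 3.19 for the gains and 3.99 to 4.8 for the losses.

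The strong sites described next had smaller folds than the largest gains above, which were picked by fold. Over all listed gene desert peaks the median log2 fold stayed between 0.47 and 0.51 in the strength bins from 3 upward. That median mixes gains and losses and does not measure their size. The peak with the smallest FDR, chr3:18695357-18698373, 215 kb from 4930433B08Rik, stood at 5.6 in control and 7.29 in knockout cells in the deposited table (log2 fold 1.69, FDR 4.21e-16). The strongest of all, chr3:11210989-11214422, 630 kb from Gm10745, stood at 7.88 and 8.39 (deposited log2 fold 0.51, FDR 0.00116), and after centring its log2 fold was 0.06 with no call. Both were named after their values were seen. At the other end, the site with the largest fold at any strength, also named after its value was seen, lay 195 kb from Ednra, the endothelin receptor gene, chr8:77919764-77920119, and was nearly closed in control (0.06) and at 3.93 in knockout cells (deposited log2 fold 3.87, FDR 0.000807).

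Developmental transcription factor genes often lie beside deserts. Of 82 listed genes 34 had a gene desert peak, 130 peaks in all, with 12 gained and 5 lost, near 10 and 3 genes. These shares, 9.23% and 3.85%, were close to the 8.58% and 3.48% of all gene desert peaks, and the median log2 folds were 0.3 and 0.31. The smallest FDR among the gains was that near Sall3, given above. The losses with the smallest FDR were both near Sall1.

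Genes of neuronal adhesion and synapses, many of which are long and flanked by deserts, had the most peaks of any list. Of 91 genes 54 had 538 peaks, 33 gained and 24 lost, or 6.13% and 4.46%. The median log2 fold was -0.6 and the median log2 concentration 3.04, against 0.31 and 3.28 over all gene desert peaks. Positive folds made up 41.6%, against 51.8%. Few listed folds lie near 0, so a modest shift in that share moves the median across the gap and overstates the difference. Gains with the smallest FDR were near Ncam2, an adhesion gene, chr16:81035253-81037200 (3.48 in control, 5.84 in knockout, deposited log2 fold 2.36, FDR 2.57e-08), and Lrp1b, of the lipoprotein receptor family (chr2:40258068-40258802, 5.01 and 6.38, deposited log2 fold 1.37, FDR 1.77e-06). The losses were near Cdh18, a cadherin gene (chr15:24124151-24124970, 5.12 and 3.54, deposited log2 fold -1.58, FDR 0.00162), and Csmd3 (chr15:47354603-47355070, 4.45 and 2.76, deposited log2 fold -1.68, FDR 0.00692). Potassium channel genes, 13 of 28 with 83 peaks, had 6 gained and 2 lost (7.23% and 2.41%, beside 8.58% and 3.48% of all gene desert peaks). Gains lay near Kcnh5 (chr12:74888349-74890793, 5.75 and 6.75, deposited log2 fold 1.0, FDR 4.91e-05, no call after centring and retesting) and Kcnj2, an inward rectifier (chr11:111397579-111398107, 3.41 and 5.06, deposited log2 fold 1.65, FDR 0.00162). Losses lay near Kcna4 (chr2:107813997-107815066, 5.88 and 4.54, deposited log2 fold -1.34, FDR 0.000385) and Kcnip4 (chr5:49712143-49713102, 5.6 and 4.32, deposited log2 fold -1.28, FDR 0.00205).

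Some pluripotency genes lie beside deserts. Of 35 naive pluripotency genes 8 had 44 peaks, with 4 gained and 1 lost (9.09% and 2.27%, beside the same 8.58% and 3.48%). Gains with the smallest FDR were near Fbxo15, a stem cell F-box gene (chr18:85175620-85176554, 4.73 and 5.95, deposited log2 fold 1.22, FDR 0.0011), and Nr5a2, a nuclear receptor that activates Pou5f1 (chr1:137173945-137174685, 5.61 and 6.35, deposited log2 fold 0.74, FDR 0.015), and neither kept its call after centring and retesting. The loss was near Lifr, the receptor of leukemia inhibitory factor (chr15:6983484-6983853, 3.55 and 1.46, deposited log2 fold -2.09, FDR 0.026). Of 19 formative and primed genes 3 had 6 peaks, with 0 gained and 1 lost, near Foxd3 (chr4:99516845-99517115, 3.44 and 0.44, deposited FDR 0.00911).

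Cardiovascular genes had 37 peaks near 10 of 46 genes, 6 gained and 1 lost (16.2% and 2.7%, beside 8.58% and 3.48% of all gene desert peaks). Their median log2 fold was -0.49, with 45.9% of folds positive. As few listed folds lie near 0, a small shift in that share turns the sign of the median. A gain lay near Bmp2, a ligand of heart formation (chr2:133351017-133352070, 4.0 in control and 5.47 in knockout cells, deposited log2 fold 1.47, FDR 0.00059). The loss lay near Mef2c, a cardiac and muscle factor (chr13:83313444-83313926, 4.4 and 2.9, deposited log2 fold -1.5, FDR 0.0287). Signalling ligands, receptors and secreted inhibitors had 67 peaks near 18 of 68 genes, with 6 gained and 2 lost (8.96% and 2.99%). Bmp7 was among the gains (chr2:172827379-172828617, 4.85 and 6.06, deposited log2 fold 1.21, FDR 0.000337), without a call after centring and retesting. The losses were near the growth factor gene Igf1 (chr10:87726348-87726713, 3.5 and 1.48, deposited FDR 0.049) and Fstl4 (chr11:52641861-52642238, 3.64 and 1.69, deposited FDR 0.0497). None of the 21 genes of the nuclear lamina and envelope had a gene desert peak. Of 20 fibroblast genes 2 had 1 each, and neither was called, which is too few to read anything from. Each count is small beside 666 gained and 270 lost peaks, and nothing particular to a list can be read from it.

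At the limit of the rule, the nearest members inside it were at 100019 bases (near Nxt1), 100026 (Zfp42) and 100054 (Olfr266), with deposited log2 folds of -0.48, -0.55 and 0.74. The nearest intergenic peaks outside it were at 100000 bases (near Mtcl1), 99978 (Nfatc2) and 99976 (Vmn2r120), with deposited log2 folds of 0.76, -0.76 and 0.84. None of the 6 was called.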

How the data were processed

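ATAC-seq of 3 control and 3 Lmna knockout libraries was deposited as 1 table of the authors' comparison. The submitters' processing notes list the build mm10, MACS2 for peaks, DiffBind with DESeq2, ChIPseeker, the aligner Bowtie2, Trimmomatic 0.39, Picard 1.119, bedtools 2.28.0, SAMtools and deepTools. Settings, any Tn5 shift and the normalization: not given in the sources used here. Per the file headers, the deposited values are log2 concentrations per group, a log2 fold, a p-value and an FDR per peak, with the width, annotation and distance to the TSS. The fold equalled knockout minus control within 0.01. FDR, rank and p gave 99078 tested peaks, so 33543 with p above 0.422 are not analysed here, and depth is unknown. A call is an FDR up to 0.05 in the authors' test across all peaks, and no test between classes was run. The edgeR fit planned for counts was not possible, and the planned branch for a comparison table was used.

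Coordinates are mm10, 1-based. Named peaks were the 10 largest gains and losses of at least median strength, the stretches with the most called peaks (6, or 8 with ties), up to 2 per gene list and direction by FDR, the 5 farthest called, the 6 genes with most peaks and those at the distance limit. Other peaks are marked as named after their values were seen. Some items that the rules select are not reported here. The members and lists were chosen with earlier results of these data known. The retest after centring took each standard error from the deposited p under a normal test, with Benjamini-Hochberg adjustment over all tested peaks and unlisted peaks at a p of 1. It was run on simulated data with the true centre given and a p for each peak. That run does not cover a centre taken from the listed peaks or the unlisted peaks, so it does not bear on the counts given here. The planned G+C, repeat and motif description over all peaks was limited to RefSeq promoter windows, because no genome was used here. The motif set, promoter windows, gene density bins, strength weighting and neighbour pairs were chosen after seeing the data. Software was SciPy 1.17.1, pandas 2.3.3 and numpy 2.4.6 under Python 3.11.15, with matplotlib 3.10.9.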

Additional observations from a re-analysis of the deposited data

How the results depend on the processing

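No paired analysis was possible because only a mean per group is given. An edgeR fit with a replicate block, DESeq2, a filter on low counts and fits without each replicate in turn need libraries and were not run. The 666 gained and 270 lost gene desert peaks became 316 and 54 at an FDR of 0.01 (4.76% called, 85.4% gained). At an absolute log2 fold of at least 1, 9.5% were called and 65.3% of them gained. At or above the median concentration of all listed peaks there were 76 lost peaks, 23.0% were called, 85.6% of these gained, and the median log2 fold was 0.48. Nearer intergenic peaks of that strength were gained in 90.6% of calls. Beyond 200 kb 381 were gained and 168 lost (11.2% called), and beyond 500 kb 128 and 64 (10.6% called, 66.7% gained), with a median log2 fold of -0.37, which turned sign. Few listed folds lie near 0, so a small shift in the share of positive folds turns that sign. With distal chromosome 14 kept in, 2326 were gained (25.5% called, 89.6% gained, median log2 fold 0.66). Centring and retesting turned the balance, with 147 gained and 888 lost (13.3% called, 14.2% gained) and a median log2 fold of -0.14, beside 21.6% gained over all listed peaks. By construction it moves each peak towards loss, and the true zero is unknown. Of the gained peaks taken by the naming rules or chosen after their values were seen, 19 of 29 kept their call there, as did 29 of 29 lost ones. Counting neighbours less than 10 kb apart once gave 13.7% called, with the other 4 values close to those reported, as were all 5 without chromosomes X and Y. Values per library would be needed to set replicate error beside any of these.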
